A study of Mus musculus with 3 samples.

Results

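Macrophages that carry *Arg1* transcripts were described in skin wounds of the mouse on Day 3 and Day 7 after injury. They were chosen by their counts in unsorted single-cell libraries. A barcode entered the macrophage gate with at least 1000 unique molecular identifiers (UMIs, each marking 1 captured RNA molecule), at most 10% of them from mitochondrial genes, and at least 0.8% from 9 macrophage genes (*Lyz2*, *C1qa*, *C1qb*, *C1qc*, *Cd68*, *Adgre1*, *Fcgr1*, *Csf1r* and *Ms4a7*). It had to hold under 0.5% from the fibroblast genes *Dcn* and *Col1a2* and under 1% from the neutrophil genes *S100a8* and *S100a9*. Gated cells with at least 3 *Arg1* UMIs are called *Arg1*-positive macrophages here, and gated cells of the same library with 0 *Arg1* UMIs are the reference. The rule chose 1450 cells of the 44693 barcodes of the series, 413 from the 5158 barcodes of Day 3 and 1037 from the 22924 of Day 7. The reference held 393 and 4683 cells, and 192 and 1018 gated cells with 1 or 2 *Arg1* UMIs belonged to neither.

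The mice were male C57BL/6J animals with punch wounds through the full thickness of the back skin, with no transgene and no treatment besides wounding. Cells of 4 wounds were pooled into 1 library per day without sorting, so the cells of a day share 1 library and there is no replicate. All intervals below are 95% and cover counting error only, no p-value is given, and a difference between days compares 2 libraries. The 3 libraries held between 38133650 and 120940799 UMIs, and between 19 and 111 barcode sequences were shared by a pair of them.

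Wound macrophages derive largely from blood monocytes that enter the tissue, take up dead neutrophils and debris, and later release factors for vessels and matrix. *Arg1* encodes arginase 1, which splits arginine into ornithine and urea. Ornithine feeds the synthesis of polyamines and proline, and the enzyme shares its substrate with the inducible nitric oxide synthase encoded by *Nos2*. *Arg1* is widely used as a marker of alternative activation by IL-4 and IL-13, and several other signals are known to induce it.

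*Arg1* (ENSMUSG00000019987, mm10 chr10:24915221-24927484, minus strand) chose the cells, so its values are only a description. The chosen cells made up 41.4% of 998 gated macrophages on Day 3 (38.3 to 44.5%) and 15.4% of 6738 on Day 7 (14.5 to 16.3%). Each held between 3 and 105 *Arg1* UMIs on Day 3, with a median of 8, and between 3 and 140 on Day 7, with a median of 7. Summed over the cells this was 2166 CPM (UMIs per 1000000 UMIs of the group) on Day 3 and 2760 on Day 7. At the lower edge of the rule, 59 cells of Day 3 and 186 of Day 7 had exactly 3 *Arg1* UMIs, while 71 and 281 gated cells had 2.

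Free RNA can place *Arg1* UMIs in other cells, so every cell was also thinned to 1000 UMIs. After thinning, 37.6% of all gated macrophages on Day 3 and 19.2% on Day 7 had an *Arg1* UMI, against 60.6% and 30.5% unthinned at median depths of 5106 and 3020 UMIs. In barcodes with fibroblast genes the thinned share was 1.39% on Day 3 and 3.04% on Day 7, at median depths of 42699 and 10371 UMIs. In 97 barcodes with T cell genes on Day 7 it was 3.09%, at a median depth of 2335 UMIs. In barcodes with neutrophil genes it was 3.73% and 6.70%, at 1447 and 1253 UMIs. Unthinned, the shares were 14.55% and 12.57% with fibroblast genes, 4.52% and 10.06% with neutrophil genes and 5.155% with T cell genes. Summed over barcodes with neutrophil genes, *Arg1* was at 186 and 329 CPM, against 961 and 549 CPM over all gated macrophages.

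The chosen cells were similar in depth to the reference on Day 3, with medians of 5197 and 5172 UMIs, and deeper on Day 7, with 3467 and 2897. They held a lower mitochondrial share, at medians of 3.14% against 4.24% on Day 3 and 2.72% against 2.97% on Day 7. The 9 gate genes took a median of 1.08% of their UMIs on Day 3 and 1.33% on Day 7, close to the limit of 0.8%. Just above that limit, between 0.8 and 1%, 45.1% of 346 cells on Day 3 and 19.8% of 1088 on Day 7 had 3 or more *Arg1* UMIs. Just below it, between 0.6 and 0.8%, the shares were 45.2% of 418 and 21.8% of 1009. A doublet caller marked 4.12% of the *Arg1*-positive cells and 1.53% of the reference on Day 3, and 10.9% and 5.55% on Day 7. Called doublets were kept, and the part of doublets in the results is given only through the values without them in the closing section.

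Defining genes of other cell types were summed in both groups. The 15 fibroblast markers summed to 341 CPM in *Arg1*-positive cells and 345 CPM in the reference on Day 3, and to 3047 and 3267 CPM on Day 7. The 17 neutrophil markers summed to 657 and 605 CPM on Day 3 and to 358 and 387 CPM on Day 7, and 2 of the 4 that passed the level limits below were 2-fold higher on Day 3, *Slpi* and *Acod1*, with 0 of 2 on Day 7. For the 16 dendritic cell markers the sums were 2065 and 2300 CPM on Day 3 and 1645 and 2058 CPM on Day 7. The 15 T and NK cell markers summed to 60.4 and 36.03 CPM on Day 3, with 10 of them at 0 in both groups, and to 125 and 94.5 CPM on Day 7. Epithelial, endothelial and pericyte markers summed to at most 53.5 CPM and erythrocyte and mast cell markers to at most 87.7 CPM in any group of either day.

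Genes were compared between *Arg1*-positive cells and the reference on the CPM scale, for genes with at least 50 CPM in 1 of the 2 sums and at least 10 UMIs in each, leaving out the genes of the rule and mitochondrial genes. A gene is called when its log2 ratio reaches 1 in size, a 2-fold difference. Of 3276 genes on Day 3, 63 (1.92%) were at least 2-fold higher in *Arg1*-positive cells and 36 (1.1%) at least 2-fold lower. Of 2967 genes on Day 7, 54 (1.82%) were higher and 37 (1.25%) lower. The medians over all genes were -0.03 and -0.01 on the log2 scale.

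Genes of glycolysis and of the response to low oxygen formed the group most often higher in *Arg1*-positive macrophages among those of the 24 lists examined with at least 10 genes past the level limits. On Day 3, 13 of the 30 list genes that passed the level limits were called higher and 0 lower, with a median log2 ratio of 0.91 and 29 of 30 above 0. On Day 7, 17 of 30 were called higher and 0 lower, with a median of 1.06 and 30 of 30 above 0. Over all genes 1461 of 3276 were above 0 on Day 3 and 1457 of 2967 on Day 7. This list and the others were drawn up with earlier results of these libraries known, so their counts are descriptions.

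*Bnip3* (ENSMUSG00000078566), which encodes a receptor for the removal of mitochondria and is a classic low-oxygen gene, led the list on both days. It stood at 353 CPM in *Arg1*-positive cells and 65.8 CPM in the reference on Day 3, a log2 ratio of 2.43 (2.17 to 2.69), and at 213 and 52.0 CPM on Day 7, a log2 ratio of 2.03 (1.89 to 2.18). The 2 groups were 5.37-fold and 4.09-fold apart. After thinning to 1000 UMIs, 30.02% of *Arg1*-positive cells (25.6 to 34.7%) and 5.85% of reference cells (3.75 to 8.65%) had a *Bnip3* UMI on Day 3. On Day 7 the shares were 19.6% (17.2 to 22.1%) and 5.23% (4.61 to 5.91%), and unthinned they were 65.9% and 25.2% on Day 3 and 43.7% and 14.2% on Day 7.

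Among enzymes of the glycolytic chain, *Pgk1* (ENSMUSG00000062070), phosphoglycerate kinase, was at 850 against 285 CPM on Day 3 (log2 ratio 1.58, 1.45 to 1.71) and at 352 against 130 CPM on Day 7 (1.43, 1.33 to 1.53). *Aldoa*, aldolase A, had log2 ratios of 1.29 on Day 3 and 1.06 on Day 7, and *Tpi1*, triosephosphate isomerase, of 1.14 and 1.06. The enzymes *Pkm*, *Pgam1*, *Eno1* and *Pfkl* lay under the 2-fold limit on Day 3, between 0.87 and 0.94, and past it on Day 7, between 1.08 and 1.12. *Ldha*, lactate dehydrogenase A, was just under it on both days with 0.84 and 0.93, and *Gapdh* had 0.67 and 0.83.

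Transporters at both ends of the pathway were also higher. *Slc2a1*, the glucose transporter GLUT1, was at 112 against 51.8 CPM on Day 3 (log2 ratio 1.12, 0.79 to 1.45) and 112 against 40.7 CPM on Day 7 (1.46, 1.28 to 1.64). *Slc16a3*, which exports lactate, had log2 ratios of 1.11 and 1.17. *Pdk1*, a kinase that holds back the use of pyruvate in mitochondria, had 1.56 on Day 3 at 53.1 against 18.01 CPM and was under the level limit on Day 7.

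Other low-oxygen genes carried secreted and stress-related products. *Vegfa*, the main growth factor for vessels, was at 665 against 224 CPM on Day 3 (1.57, 1.42 to 1.72) and at 341 against 123 CPM on Day 7 (1.47, 1.37 to 1.57). As an alternative, gated cells were thinned to 1000 UMIs and regrouped by any or no remaining *Arg1* UMI. The Day 3 ratio of *Vegfa* was then 0.86, under the 2-fold limit. *Ero1l*, an oxidase of the endoplasmic reticulum, had 1.60 and 1.33, and *Ddit4*, an inhibitor of mTORC1, 1.68 and 1.72. *Hilpda*, which protects lipid droplets from breakdown, had 1.81 and 1.16, and the cytokine gene *Mif* 1.36 and 1.04. *Hif1a*, the transcription factor of the low-oxygen response, had 0.45 (0.33 to 0.57) on Day 3 and 1.14 (1.07 to 1.22) on Day 7. The 33 nuclear genes of oxidative phosphorylation that passed on Day 3 and the 31 on Day 7 held 0 called genes in either direction. Over all genes 1.92% and 1.82% were called higher and 1.1% and 1.25% lower, so a list of this size may hold none. Above 0 were 15 of 33 and 26 of 31, with medians of -0.02 and 0.12. Over all genes 1461 of 3276 and 1457 of 2967 were above 0.

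**Figure D1:**
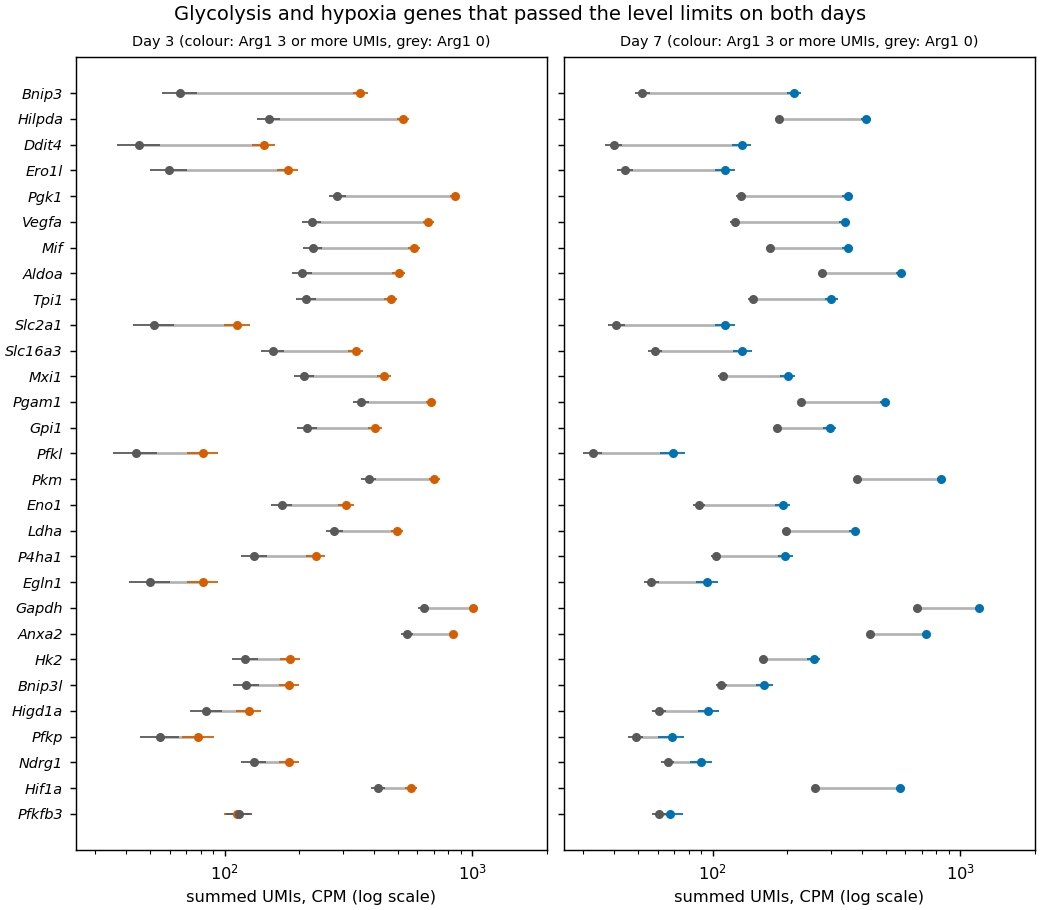
Levels of the 29 glycolysis and hypoxia genes that passed the level limits on both days, as CPM on a log axis, in *Arg1*-positive macrophages (colour) and the reference with 0 *Arg1* UMIs (grey); horizontal bars are 95% Poisson intervals. *Bnip3* shows the widest gap on Day 3, at 353 against 65.8 CPM.

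Most *Arg1*-positive cells shared in the difference. With every cell thinned to 1000 UMIs, *Arg1*-positive cells held a median of 11 UMIs from the 39 list genes on Day 3 and 9 on Day 7, against 5 and 4 in the reference. The middle range from the 25% to the 75% quantile was 7 to 16 UMIs on Day 3 and 6 to 13 on Day 7, against 3 to 8 and 2 to 6. Of *Arg1*-positive cells, 85.0% on Day 3 and 86.3% on Day 7 lay above the reference median, as did 49.6% and 43.4% of the reference cells themselves. The distributions overlapped, since the 25% quantile of *Arg1*-positive cells did not exceed the 75% quantile of the reference on either day. That reference quantile, 8 UMIs on Day 3 and 6 on Day 7, was exceeded by 66.6% and 70.7% of *Arg1*-positive cells. Of reference cells 20.9% and 21.3% exceeded it, a share that the quantile itself sets.

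**Figure D2:**
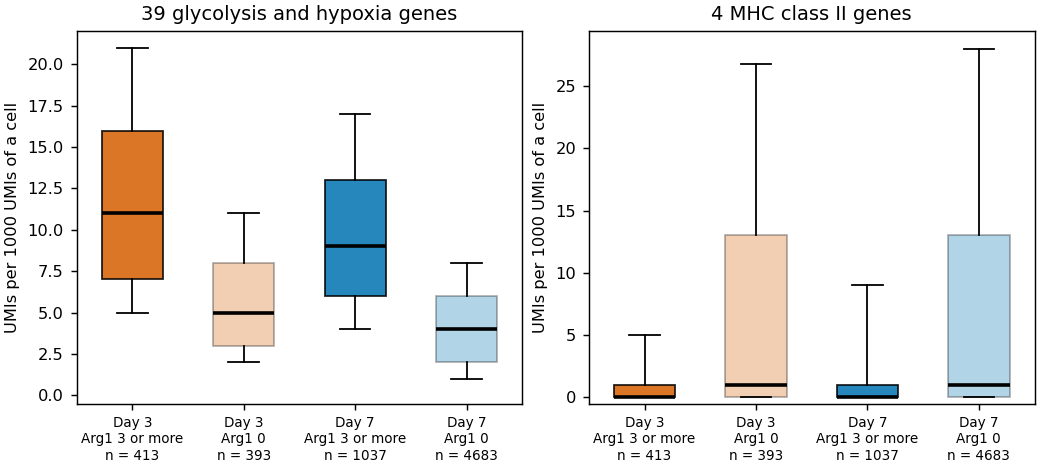
UMIs per cell after thinning to 1000 UMIs, for the 39 glycolysis and hypoxia genes (left) and for *H2-Aa*, *H2-Ab1*, *H2-Eb1* and *Cd74* (right), in *Arg1*-positive macrophages and the reference. Boxes span the 25% to 75% quantiles with the median as a thick line, whiskers reach the 10% and 90% quantiles; the medians for the 39 genes are 11 and 9 in *Arg1*-positive cells and 5 and 4 in the reference.

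Promoter sequence of 3 of these genes is shown because they were higher on both days and all hold the pentamer ACGTG. This pentamer is 1 form of the core of the element bound by hypoxia-inducible factors, and other forms were not searched. The 250 bases before the RefSeq start (GRCm38.p6) are printed 5′ to 3′ in the direction of the gene, with ACGTG or its reverse complement CACGT in capitals.
*Bnip3*, GRCm38.p6 chr7:138909507-138909756, minus strand: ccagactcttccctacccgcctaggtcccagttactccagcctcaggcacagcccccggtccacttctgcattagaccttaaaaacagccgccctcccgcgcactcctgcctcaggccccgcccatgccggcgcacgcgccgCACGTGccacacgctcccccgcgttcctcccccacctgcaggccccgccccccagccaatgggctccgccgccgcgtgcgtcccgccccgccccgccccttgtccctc
*Pgk1*, GRCm38.p6 chrX:106186850-106187099, plus strand: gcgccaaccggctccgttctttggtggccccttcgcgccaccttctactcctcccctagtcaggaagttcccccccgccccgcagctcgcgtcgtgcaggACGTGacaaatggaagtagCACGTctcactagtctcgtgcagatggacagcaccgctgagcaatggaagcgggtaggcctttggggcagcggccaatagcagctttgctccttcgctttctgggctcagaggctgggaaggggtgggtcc
*Slc2a1*, GRCm38.p6 chr4:119108495-119108744, plus strand: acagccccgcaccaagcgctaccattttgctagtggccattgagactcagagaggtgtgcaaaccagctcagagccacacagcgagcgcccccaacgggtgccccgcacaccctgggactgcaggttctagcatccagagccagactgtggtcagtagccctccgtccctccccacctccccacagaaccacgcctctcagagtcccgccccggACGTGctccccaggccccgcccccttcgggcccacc
The capitals in *Bnip3* are 1 palindrome, CACGTG, in which both strands match and which is also the common E-box. *Pgk1* holds 2 separate matches, which begin 150 and 131 bases before the start, and *Slc2a1* holds 1, 36 bases before it. Of the 39 list genes in the tables, 35 had RefSeq promoters, 48 in all, and 26 of these (54.2%) held the pentamer on either strand. Among all 32851 promoters the share was 16.6%. List promoters were rich in CG dinucleotides, which the pentamer contains, with a median of 15 per window against 6, and among the 8970 promoters with at least 15 the share was 25.1%. Of the 28 promoters of list genes called higher on either day, 15 (53.6%) held the pentamer, close to the share of the whole list. The share was 24.2% among the 3644 promoters of all genes compared on either day. The list was made of glycolysis and low-oxygen genes, so its share describes the list and not these cells. A match is a letter pattern and not evidence of binding.

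Genes of antigen presentation by MHC class II were, among the same lists, the group most often lower. On each day 6 of the 12 list genes that passed were called lower and 0 higher, with median log2 ratios of -1.16 on Day 3 and -0.89 on Day 7. *H2-Aa* (ENSMUSG00000036594), an alpha chain of MHC class II, was at 496 CPM in *Arg1*-positive cells and 2283 CPM in the reference on Day 3 (-2.20, -2.29 to -2.11), and at 765 and 2362 CPM on Day 7 (-1.63, -1.68 to -1.57). *H2-Eb1* and *H2-Ab1*, beta chains, had -2.28 and -2.17 on Day 3 and -1.73 and -1.60 on Day 7. *Cd74*, the invariant chain that guides class II molecules, was at 937 against 4019 CPM on Day 3 (-2.10) and 1120 against 3021 CPM on Day 7 (-1.43). Among the 44 gated cells of Day 3 with gate genes at 2% or more, of which 11 were *Arg1*-positive, 0 of 8 list genes that passed were called, with ratios of 0.079 for *Cd74*, -0.088 for *H2-Aa*, -0.50 for *H2-Ab1* and -0.72 for *H2-Eb1*, so the lower class II of Day 3 did not hold there. *H2-DMa* and *H2-DMb1*, which load peptides, had -1.53 and -1.57 on Day 3 and -1.03 and -1.28 on Day 7.

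The class II genes were unevenly spread over cells. After thinning, 25.9% of *Arg1*-positive cells (21.7 to 30.4%) and 52.4% of the reference (47.4 to 57.5%) had a UMI of *H2-Aa*, *H2-Ab1*, *H2-Eb1* or *Cd74* on Day 3. On Day 7 the shares were 40.2% (37.2 to 43.3%) and 58.9% (57.5 to 60.3%). The highest 25% of reference cells held 13 or more such UMIs per 1000 on both days, against 1 or more in *Arg1*-positive cells, so the reference contained a part with high class II. The 16 dendritic cell genes summed to 2065 CPM in *Arg1*-positive cells and 2300 CPM in the reference on Day 3 and to 1645 and 2058 CPM on Day 7, of which *Cst3* and *Sirpa*, which macrophages express as well, made up the most. On each day 3 genes of that list passed the level limits and 0 were called. On Day 3, 1 of them had a log2 ratio above 0 and 2 below, and on Day 7 all 3 were below. Among list genes under those limits, *Mgl2* was at 2.14 and 34.2 CPM on Day 3 and 16.4 and 49.3 CPM on Day 7. *Flt3* was at 1.29 and 4.95 CPM on Day 3 and 3.47 and 3.80 CPM on Day 7. *Cd209a* was at 2.14 and 6.75 CPM and 3.96 and 7.13 CPM. Each of these was higher in the reference on Day 3, but they are picked genes at low levels and do not stand for the list. *Xcr1* and *Clec9a* were at 0 on Day 3. The part of dendritic cells in the class II difference was not tested. A further comparison used only cells without a UMI of these 4 class II genes, a choice made after the data were seen. There 13 of 29 passing glycolysis and hypoxia genes on Day 3 and 18 of 31 on Day 7 were called higher.

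The 6 genes named as markers of these cells were not uniform. *Arg1* was used to choose them. *Spp1* (ENSMUSG00000029304), which encodes osteopontin, was at 4732 against 1799 CPM on Day 3 (1.39, 1.34 to 1.45) and 3586 against 1415 CPM on Day 7 (1.34, 1.31 to 1.37). *Cd36*, a scavenger receptor for lipids and dying cells, was at 391 against 199 CPM on Day 3 (0.98, 0.81 to 1.14) and 838 against 483 CPM on Day 7 (0.80, 0.74 to 0.85), under the 2-fold limit on both days. *Hmox1*, heme oxygenase, was at 1812 against 1614 CPM on Day 3 (0.17, 0.10 to 0.23) and at 2794 against 1228 CPM on Day 7 (1.19, 1.15 to 1.22). Its direction on Day 3 did not hold, with -0.20 at 2000 to 4000 UMIs and -0.054 at 4000 to 8000 UMIs, and values down to -0.16 under 3 alternatives. *Trem2*, a lipid-sensing receptor, had 0.46 on Day 3 at 312 against 228 CPM and 0.10 on Day 7 at 395 against 368 CPM, which was -0.020 and -0.080 in the same depth ranges and below 0 under 3 alternatives. *Fabp5*, a fatty acid carrier, had -0.23 (-0.35 to -0.12) on Day 3 at 511 against 601 CPM and 0.71 on Day 7 at 1774 against 1082 CPM. Its value on Day 3 depended on 5 reference cells of 16000 UMIs or more, which held 490 of its UMIs: in each of the 4 ranges of lower depth the ratio was above 0, between 0.15 and 1.02, and without cells of that depth it was 0.28, an alternative chosen after seeing the data. Of the 5 markers that the rule did not use, *Spp1* was called on both days and *Hmox1* on Day 7, while *Cd36*, *Trem2* and *Fabp5* were called on neither. For *Cd36* on Day 3 this depended on the gate, with 1.55 at gate genes of 0.4% or more and 0.070 at 2% or more. After thinning with cells regrouped by any or no remaining *Arg1* UMI, *Spp1* lay under the limit on both days, with 0.85 and 0.88. *Hmox1* on Day 7 lay between 0.73 and 1.00 under 4 alternatives. These were gate genes at 2% or more, cells without a class II UMI, 1 *Arg1* UMI or more, and thinning with that regrouping. Over the whole lipid list 3 of 23 genes were called higher on Day 3 and 2 of 24 on Day 7, with 0 lower and medians of 0.18 and 0.20. *Cd9*, a tetraspanin, was among them on Day 3, at 1.80, and lay at 1.00 on Day 7 without reaching the limit.

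Most genes of alternative activation were not higher beside *Arg1*. None of 14 passing list genes was called higher on Day 3, 2 were lower, and on Day 7 1 of 15 was higher and 4 lower, with medians of -0.06 and -0.07. *Mrc1*, the mannose receptor, was at 788 against 1185 CPM on Day 3 (-0.59) and 1157 against 1524 CPM on Day 7 (-0.40). *Clec10a*, a galactose-binding lectin, had -1.14 (-1.44 to -0.84) and -1.80 (-2.05 to -1.55). *Chil3* had -0.36 on Day 3 and was below the level limit on Day 7. *Il10* had -0.42 and -1.08, *Ear2* had -1.37 on Day 7, and *Tgm2*, transglutaminase 2, was the gene called higher, with 0.88 on Day 3 and 1.10 on Day 7.

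*Retnla*, a product of IL-4 signalling in macrophages, was at 14.6 against 212 CPM on Day 3 (-3.86, -4.41 to -3.36) and 119 against 370 CPM on Day 7 (-1.64, -1.78 to -1.50). The share of cells with a *Retnla* UMI differed little, at 1.21% and 1.53% on Day 3 and 5.11% and 5.25% on Day 7 unthinned. On Day 3, 420 of the UMIs of the reference lay in 5 cells of 16000 UMIs or more. Without cells of that depth the Day 3 ratio was -0.69 and *Retnla* was not called on that day, while the Day 7 ratio was -1.64. In cells without a class II UMI its ratio on Day 7 was 0.69, the opposite direction.

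The enzyme that competes for arginine was nearly undetected. *Nos2* was at 6.00 CPM in *Arg1*-positive cells and 2.70 CPM in the reference on Day 3 and at 0.496 and 0.533 CPM on Day 7. Of 20 other genes of arginine and polyamine metabolism, 6 passed the limits on each day and 0 were called, with medians of 0.13 and -0.03. *Odc1*, which makes the first polyamine from ornithine, had 0.62 on Day 3 and 0.01 on Day 7. *Arg2*, the mitochondrial arginase, had 0.71 on Day 3 at 56.6 against 34.7 CPM.

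Genes of matrix and of secreted proteins were higher in part. *Fn1* (ENSMUSG00000026193), fibronectin, was at 2482 against 820 CPM on Day 3 (1.60, 1.52 to 1.67) and 1674 against 489 CPM on Day 7 (1.78, 1.73 to 1.82). *Timp1*, an inhibitor of matrix proteases, had 1.18 and 1.59, and *Adam8*, a surface protease, 0.97 and 1.31. In the matrix list 3 of 22 genes were called higher on Day 3 and 4 of 23 on Day 7, with 0 lower and medians of 0.41 and 0.45. Among growth factors *Areg*, a ligand of the EGF receptor, was at 100.7 against 15.3 CPM on Day 3 (2.72, 2.19 to 3.28) and under the level limit on Day 7. *Igf1* was lower, with -1.09 and -1.01, as was *Gdf15*, with -1.02 and -1.21. In the growth factor list 2 of 13 genes were called higher and 2 lower on Day 3, and 2 of 12 higher and 3 lower on Day 7.

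Chemokine genes went in both directions. The neutrophil ligands *Cxcl1*, *Cxcl2* and *Cxcl3* were called higher on Day 3, with *Cxcl3* at 694 against 64.9 CPM (3.42, 3.17 to 3.68), *Cxcl1* at 633 against 178 CPM (1.83) and *Cxcl2* at 4290 against 1974 CPM (1.12). On Day 7 *Cxcl3* had 1.67 (1.53 to 1.81), while *Cxcl1* and *Cxcl2* had 0.33 and 0.43. *Ppbp*, a further ligand of this kind, was at 167 against 27.0 CPM on Day 3 (2.63) and 101.1 against 11.2 CPM on Day 7 (3.17, 2.91 to 3.44), the highest ratio of Day 7. *Pf4* had 0.91 and 1.15. Of the CC chemokines, *Ccl8* was called lower on both days, with -1.23 and -1.50 on the log2 scale, as was *Ccl4*, with -1.33 and -1.06. *Ccl3* had -1.43 and -0.61, and *Ccl12* had -1.14 and -0.73, so neither was called on Day 7. The monocyte ligands *Ccl2*, with -0.31 and -0.53, and *Ccl7*, with -0.23 and -0.52, were called on neither day. In the chemokine list 4 of 26 genes were called higher and 4 lower on Day 3, and 3 higher and 2 lower on Day 7. Heat shock transcripts differed between the groups as well: the median share of *Hspa1a* and *Hspa1b* in a cell's UMIs on Day 3 was 0 in *Arg1*-positive cells and 0.0786% in the reference, and on Day 7 0.0245% and 0.0387%. The part of this in the lower *Ccl3*, *Ccl4* and *Atf3* of Day 3 was not tested.

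The inflammatory list, which shares several chemokines, had 5 of 23 genes called higher and 2 lower on Day 3, and 4 of 21 higher and 1 lower on Day 7. *Il1b* was not among them, with 0.26 on Day 3 and 0.02 on Day 7. *Ptgs2*, cyclooxygenase 2, had 0.98 and 1.04, and *Clec4d*, a lectin receptor of myeloid cells, 1.52 and 1.20. *Acod1*, which makes itaconate, was called on Day 3, with 1.80 at 64.3 against 18.5 CPM. *Saa3*, an acute phase protein, had 0.11 on Day 3 and 1.54 (1.35 to 1.73) on Day 7, where it stood at 101.8 against 34.9 CPM.

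Several of the genes with the highest ratios encode surface proteins not specific to macrophages. *Pdpn*, podoplanin, was at 384 against 72.5 CPM on Day 3 (2.41) and 301 against 80.5 CPM on Day 7 (1.90). *Cav1*, the coat protein of caveolae, had 3.33 and 2.30 at 63.4 and 59.7 CPM in *Arg1*-positive cells. *Nt5e*, the ectoenzyme CD73 that releases adenosine, had the highest ratio of Day 3, 3.51 (2.63 to 4.55), at 56.6 against 4.95 CPM. After thinning with regrouping by *Arg1* UMI, *Nt5e* had 2.02 and *Cav1* 1.92 on Day 3. *Bnip3* was at 2.03 or more under every alternative of that day, so the highest rank of *Nt5e* did not hold after thinning. *AA467197* had 2.69 and 2.41, and *F7*, coagulation factor VII, had 1.80 on Day 7. *Slc7a11*, which imports cystine for glutathione, had 2.13 on Day 3 and 1.12 on Day 7, and was with *Mt2* (1.40 on Day 3) and *Hmox1* among the called genes of the heme, iron and oxidative defence list, with 2 of 20 higher on each day and 0 lower. *Ctsl*, cathepsin L, had 0.85 on Day 3 and 1.60 on Day 7 at 3140 against 1035 CPM, and was the 1 called gene of 24 in the lysosomal list on Day 7, after 0 of 25 on Day 3.

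Further genes at the ends of the Day 3 order were *Rgcc*, a regulator of the cell cycle, at 2.27 with 1.45 on Day 7, and *Sox4*, a transcription factor, at 2.19 with 0.82 below the level limit on Day 7. Low on Day 3 were *Spon1*, which encodes a secreted matrix protein, at -1.87 and *Rnd3* at -1.64. *Lyz1* had -1.66 on Day 3, but 0.60 without cells of 16000 UMIs or more, and as a near copy of the gate gene *Lyz2* its counts are uncertain. Of the remaining called list genes, *Olr1*, a receptor for oxidised lipoproteins, had 1.59, *Ltc4s*, leukotriene C4 synthase, 1.10 and *Mxi1* 1.07 on Day 3, and *Fam162a* had 1.19 and *Slamf7* -1.38 on Day 7.

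Genes of monocytes and of resident macrophages were mixed or lower. In the monocyte list only *Fn1* was called higher, on both days, and *Ly6c2* and *Plac8* were lower on Day 7, with -1.55 and -1.19 after -0.60 and -0.49 on Day 3, and the list medians were 0.32 and 0.36. In the resident list 3 of 22 genes were called lower on Day 3 and 5 of 24 on Day 7, and 1 was higher on each day, with medians of -0.21 and -0.44. Those lower on Day 7 included *Selenop*, a selenium carrier (-1.19), and *Gas6*, a bridge to dying cells (-1.14), and *Fcrls* was lower on Day 3 (-1.23). *Axl*, a receptor that binds *Gas6*, had -0.88 and -1.15. In the efferocytosis list as a whole 2 of 22 genes were called higher on each day, and 0 and 2 lower.

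*Ighm*, the heavy chain of immunoglobulin M, was the lowest gene of Day 7 at 22.3 against 93.4 CPM (-2.07), with -1.95 on Day 3. The B cell genes *Cd79a* and *Ms4a1*, examined after this value was seen, held at most 2 UMIs each in any group. *Tmem176a* and *Tmem176b*, membrane genes of antigen-presenting cells, had -1.79 and -1.58 on Day 3 and -1.61 and -1.59 on Day 7. Among 39 and 37 passing transcription factors, *Bhlhe40* was called higher (1.05) and *Atf3* lower (-1.13) on Day 3, and *Hif1a* higher on Day 7. The interferon list had 1 called gene of 18 on Day 3 and 1 of 10 on Day 7, both lower, *Ifit1* (-1.01) and *Ms4a4c* (-1.10). Below 0 were 16 of the 18 and 9 of the 10, with medians of -0.24 and -0.50. Over all genes 1815 of 3276 and 1510 of 2967 were below 0. In cells without a class II UMI *Ifit1* on Day 3 had -0.0086. The cell cycle list had 0 called of 6 on each day.

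**Figure D3:**
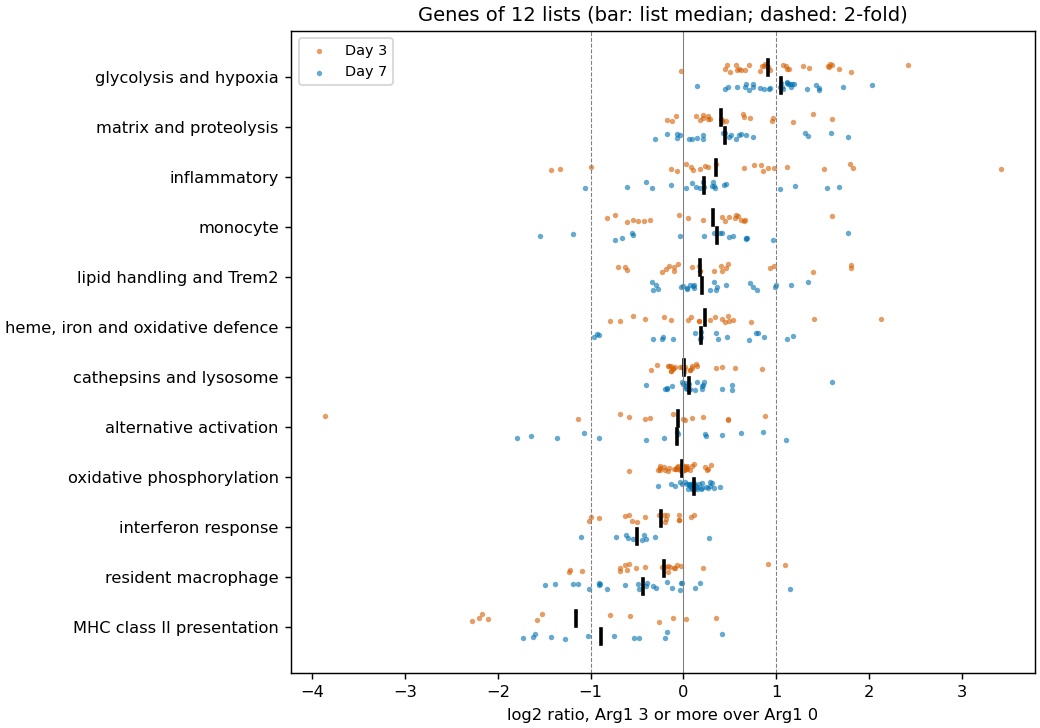
Log2 ratio of *Arg1*-positive macrophages over the reference for each gene that passed the level limits, by list, on Day 3 and Day 7; the black bar is the list median and dashed lines mark 2-fold. The glycolysis and hypoxia list lies highest, with medians of 0.91 and 1.06, and MHC class II lowest, with -1.16 and -0.89.

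The profile of *Arg1*-positive cells was similar on both days. Across 2767 genes that passed on both, the log2 ratios had a Pearson r of 0.76 and a Spearman rho of 0.61, as a description over genes, which are not independent. The 2 libraries are separate, with 43 barcode sequences in common, and the gate and scaling are the same. In all, 33 genes were called higher on both days, 52.4% of those of Day 3 and 61.1% of those of Day 7. Lower on both were 16, 44.4% and 43.2%. Over all genes compared, 1.92% and 1.82% were called higher on Day 3 and Day 7, and 1.1% and 1.25% lower. The 16 include *Retnla*, which without cells of 16000 UMIs or more had -0.69 on Day 3 and was not called there. No gene was called higher on 1 day and lower on the other. Every one of the 50 genes called higher on Day 3 that passed on Day 7 had a ratio above 0 there, and all 29 called lower on Day 3 that passed had a ratio below 0. In the other direction, 48 of 49 genes called higher on Day 7 that passed on Day 3 had a ratio above 0 there. All 35 called lower on Day 7 that passed on Day 3 had a ratio below 0. Over all genes 1461 of 3276 on Day 3 and 1457 of 2967 on Day 7 were above 0, and 1815 and 1510 below.

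**Figure D4:**
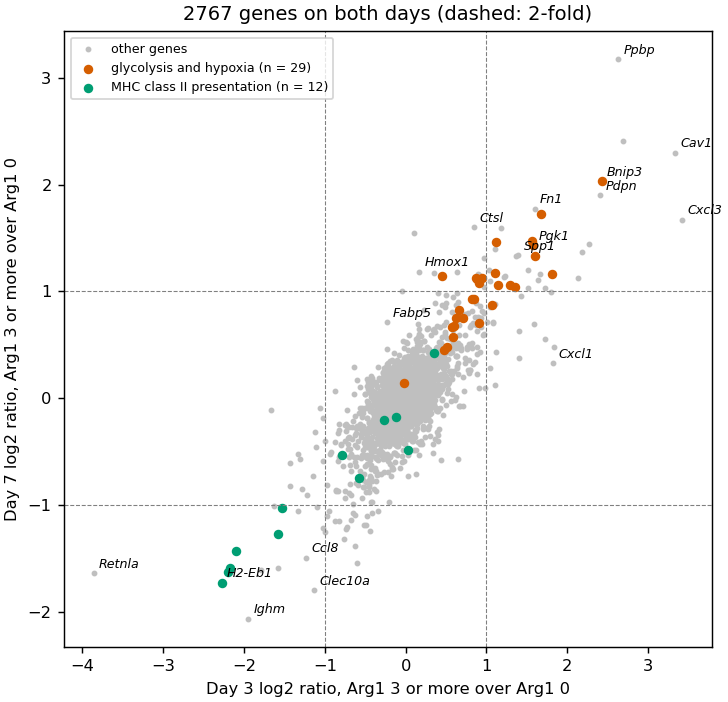
Log2 ratio of *Arg1*-positive macrophages over the reference on Day 3 and Day 7 for 2767 genes; the 29 glycolysis and hypoxia genes are orange, the 12 MHC class II genes green, and dashed lines mark 2-fold. 33 genes lie past 2-fold higher on both days and 16 past 2-fold lower.

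*Arg1*-positive cells also differed among themselves. They were split into 3 parts of equal size by the *Arg1* share of their UMIs, with summed *Arg1* levels of 724, 1774 and 4619 CPM on Day 3 and 866, 2305 and 6147 CPM on Day 7. *Bnip3* stood at 190, 320 and 619 CPM in the lowest, middle and highest part on Day 3 and at 117, 180 and 394 CPM on Day 7, against 65.8 and 52.0 CPM in the reference. All 30 glycolysis and hypoxia genes were above 0 for the highest over the lowest part on each day, with median log2 ratios of 1.05 and 0.75, where over all genes 1450 of 3276 were above 0 on Day 3 and 1313 of 2967 on Day 7, with medians of -0.050 and -0.040. *Fn1* followed, with 1767, 2263 and 3723 CPM on Day 3 and 1213, 1521 and 2542 CPM on Day 7. The *Arg1* level that orders the parts also chose the cells, so these orders are descriptions. In *Arg1*-positive cells *Bnip3* also fell with depth. On Day 3 it went from 859 CPM at 1000 to 2000 UMIs to 248 CPM at 8000 to 16000. On Day 7 the same ranges held 371 and 99.2 CPM. Since the rule needs 3 *Arg1* UMIs, cells of low depth cannot have a low *Arg1* share, so the parts also differ in depth. The part of depth in the order of *Bnip3* was not tested.

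Most called genes went the same way between these parts as against the reference: 61 of the 63 genes called higher on Day 3 and 52 of the 54 of Day 7 were above 0, and 30 of 36 and 35 of 37 called lower were below 0. These genes were called from the same cells, and *Arg1* both chose the cells and ordered the parts, so the counts are descriptions only. *Pdpn* had 1.42 on Day 3 and 1.47 on Day 7, *Cxcl3* 2.92 and 1.26, *Timp1* 0.97 and 1.03, and *Selenop* -1.43 and -1.37. Others of those described above did not have the same order on both days. *Spp1* was at 4280, 4890 and 5191 CPM on Day 3, a log2 ratio of highest over lowest part of 0.28 (0.21 to 0.34), and at 3863, 3210 and 3548 CPM on Day 7, a ratio of -0.12. *H2-Aa* was at 490, 519 and 479 CPM on Day 3 and at 922, 746 and 545 CPM on Day 7, with ratios of -0.033 and -0.76. The MHC class II list had medians of -0.11 on Day 3, with 8 of 12 genes below 0, and -0.57 on Day 7, with 11 of 12. *Hmox1* went from 2269 to 1841 CPM on Day 3 and from 2351 to 3366 CPM on Day 7, with ratios of -0.30 and 0.52. Median depth was 6442 UMIs in the lowest and 4171 in the highest part on Day 3 and 4692 and 2960 on Day 7, and its part in these orders was not tested.

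Levels were also taken by *Arg1* count around the limit of the rule. On Day 7 *Pgk1* stood at 130 CPM in cells with 0 *Arg1* UMIs, 169 with 1, 197 with 2, 213 with 3, 254 with 4, 327 with 5 to 9 and 464 with 10 or more. On Day 3 the same series was 285, 415, 469, 460, 645, 708 and 1086 CPM. *H2-Aa* was lower already in cells with 1 *Arg1* UMI, at 1174 CPM on Day 3 and 1290 CPM on Day 7, against 2283 and 2362 CPM with 0, and differed less between the higher counts. *Bnip3* on Day 3 had no steady order, with 65.8, 137, 100.4, 275, 337, 244 and 451 CPM, nor had *Hmox1* on Day 3, which lay between 998.5 and 2616 CPM, or *Spp1* on Day 7, which was highest with 3 UMIs, at 4211 CPM. Median depth differed between these counts, with 5172, 4524, 5699, 4122, 4184, 5418 and 5572 UMIs on Day 3 in the same order. On Day 7 it was 2897, 3165, 3300, 3386, 3782, 3159 and 3923 UMIs, and the part of depth was not tested. The *Arg1* count that orders the cells also chose them, and the levels are given without a test.

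**Figure D5:**
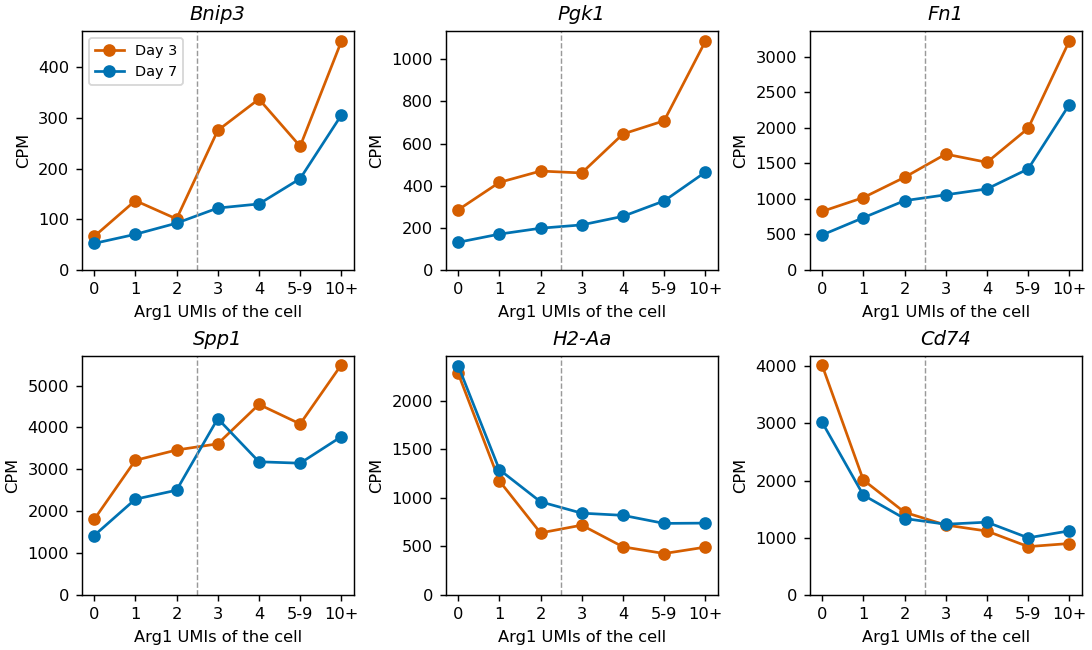
Summed level (CPM) of 6 genes in gated macrophages by the number of *Arg1* UMIs in the cell, on Day 3 (orange) and Day 7 (blue); the dashed line marks the limit of 3 *Arg1* UMIs. *Pgk1* climbs from 285 to 1086 CPM on Day 3 and from 130 to 464 CPM on Day 7, while *H2-Aa* drops most between 0 and 1 UMI.

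Several of the main differences were also taken within ranges of depth. Within 4 depth ranges from 1000 to 16000 UMIs the log2 ratio of *Bnip3* lay between 2.27 and 2.88 on Day 3 and between 1.85 and 2.34 on Day 7. For *H2-Aa* it lay between -3.89 and -1.86 on Day 3 and between -2.49 and -0.99 on Day 7. It was smallest in size in the deepest range on both days, and under the 2-fold limit there on Day 7. For *Vegfa* it lay between 0.84 and 2.16 on Day 3 and between 1.22 and 1.72 on Day 7. For *Pgk1* it lay between 1.38 and 2.34 on Day 3 and between 0.97 and 2.08 on Day 7. The ratio of *Spp1* lay between 0.79 and 2.40 on Day 3 and between 0.91 and 1.52 on Day 7.

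Co-detection within *Arg1*-positive cells was examined after thinning. Of these cells 65.1% had an *Spp1* UMI on Day 3 and 58.0% on Day 7. Barcodes chosen by neutrophil genes, at median depths of 1447 and 1253 UMIs against 5197 and 3467, had one in 45.2% and 40.2%, and held *Spp1* at 9626 CPM on Day 3, above the 4732 CPM of *Arg1*-positive cells, and 3219 CPM on Day 7. The *Spp1* shares therefore cannot be read as specific to macrophage barcodes. *Mrc1* was found in 41.6% of those with and 41.0% of those without an *Spp1* UMI on Day 3, and in 53.6% and 56.2% on Day 7. *Spp1* was found in 43.0% of those with a *Cd74* UMI and 70.9% of those without on Day 3, and in 43.5% and 63.8% on Day 7.

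*Arg1*-positive cells of Day 7 were set beside those of Day 3. Of 3233 genes, 45 (1.39%) were at least 2-fold higher on Day 7 and 239 (7.39%) lower, around a median of -0.25. The noncoding gene *Gm42418*, which collects ribosomal reads, took a median of 14.8% of UMIs on Day 7 and 2.62% on Day 3, and its part in that median was not tested. The lowest ratios were those of *Slfn4* (-3.02), *Oas3* (-2.99), *Isg15* (-2.88), *Ms4a4c* (-2.77) and *Alyref* (-2.71). All 16 interferon genes that passed were called lower, with a median of -1.89, and in the reference 15 of these 16 were 2-fold lower, with a median of -1.55. *Isg15* was at -2.88 (-3.25 to -2.52) in *Arg1*-positive cells and -2.23 (-2.43 to -2.04) in the reference. *Plac8* and *Ly6c2*, genes of recent monocytes, were at -2.55 and -2.22 on the log2 scale in *Arg1*-positive cells and -1.85 and -1.27 in the reference.

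The highest ratios of Day 7 over Day 3 were those of *Postn* (3.96), *Bgn* (3.81), *Col6a1* (3.54), *Dpt* (3.31) and *Mmp12* (3.15). The first 4 are fibroblast genes, and all 8 fibroblast markers that passed were called higher, with a median of 3.22. In the reference all 8 were 2-fold higher as well, with a median of 3.67, *Postn* at 4.90 and *Col6a1* at 4.43. *Mmp12*, macrophage elastase, was at 35.1 CPM on Day 3 and 312 CPM on Day 7, with 18.5 and 202 CPM in the reference. *Fabp5* was called higher, at 1.79, as was *Cd36*, at 1.10, with 0.85 and 1.28 in the reference. The reference value of *Fabp5* includes 5 cells of Day 3 with 16000 UMIs or more, which held 490 of its UMIs. The glycolysis and hypoxia list had 5 of 31 genes lower and 0 higher, with a median of -0.38, and in the reference 2 lower and 0 higher, with a median of -0.35.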

How the data were processed

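Cells of wound tissue were captured with Chromium 3′ v3.1 chemistry, and the authors aligned reads to mm10 with Cell Ranger 6.0.0 (per the labels) and deposited UMI counts per gene and barcode. The annotation is not given in the sources used here, and GENCODE M21 gave symbols and positions. The cells and the 24 gene lists were chosen with earlier results of these data known. Counts were summed per group and library. Ratios of CPM were given exact conditional binomial intervals, levels Poisson intervals and shares Clopper-Pearson intervals (Python 3.11.15, NumPy 2.4.6, SciPy 1.17.1). The ratio intervals were checked only on simulated Poisson sums, the model they assume. That check cannot show coverage where the UMIs of a gene lie in few cells, as for *Retnla* on Day 3. Genes named by size are the 10 highest and 10 lowest ratios of each day, and the 5 highest and 5 lowest between days; list genes are named where past 2-fold on either day, along with the 6 markers and defining genes of a list. No RNA carried over between droplets was subtracted. Doublets were called by simulation among 50 neighbours and kept. Promoters came from RefSeq (GRCm38.p6). Alternatives changed the scaling, the gate, the *Arg1* limit, the depth and the level limits.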

Additional observations from a re-analysis of the deposited data

Results flagged for a closer look

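*Fabp5* had log2 ratios of *Arg1*-positive cells over the reference of -0.23 on Day 3 and 0.71 on Day 7, and *Sdc4*, a syndecan, of 0.71 and -0.070. In both cases the 2 days went opposite ways with intervals that exclude 0 and at least 1 ratio of 0.5 or more in size. For *Fabp5* the opposite direction did not hold: the Day 3 ratio was above 0 under 6 alternatives, at 0.28 without cells of 16000 UMIs or more, and it was above 0 in each of 4 depth ranges below that. The difference between days was not tested, since each day is 1 library. On Day 14, which no comparison above uses, 10 of 2686 gated macrophages had any *Arg1* UMI, and 1 of them reached 3, a share of 0.0372% (0.000943 to 0.207%).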

How the results depend on the processing

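No paired analysis was possible because each day has 1 library, and for the same reason no replicate could be left out. Under 19 alternatives a day, 5 of 1104 values of the 59 called named genes of Day 3 and 1 of 1155 values of the 61 of Day 7 changed sign, and 19 and 24 of these genes stayed past 2-fold under every alternative. After thinning, with cells regrouped by any or no remaining *Arg1* UMI, 16 and 20 of them lay under 2-fold. With 1 *Arg1* UMI or more 17 and 31 did, and with macrophage genes at 2% or more 17 and 18. With the macrophage genes at 2% or more, which left 11 *Arg1*-positive cells of 44 on Day 3, *Ccl3*, *Cd74*, *Lyz1* and *Pdk1* had log2 ratios of 0.080, 0.079, 0.11 and -0.37. In cells without a class II UMI (chosen after seeing the data) *Retnla* on Day 7 had 0.69, and without cells of 16000 UMIs or more (also chosen after seeing the data) *Lyz1* on Day 3 had 0.60. The cause of these was not tested.

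The share of *Arg1*-positive cells on Day 3 was 45.3% at no more than 5% mitochondrial UMIs, 60.6% with 1 *Arg1* UMI or more, 31.1% with 5 or more, 37.6% for any UMI after thinning and 25% with macrophage genes at 2% or more. On Day 7 it was 16.3%, 30.5%, 10.8%, 19.2% and 11% under these, 16.3% at 2000 UMIs or more, 17.0% with macrophage genes at 0.4% or more and 16.8% with *Dcn* and *Col1a2* under 0.1%. With 1 *Arg1* UMI or more, 39 genes were higher and 20 lower on Day 3, and 17 and 13 on Day 7. With no CPM limit there were 135 and 164 on Day 3 and 203 and 157 on Day 7. On Day 3 there were 98 higher with macrophage genes at 2% or more, 23 lower at 100 CPM or more and 61 lower without class II UMIs, and on Day 7 56 lower with 5 *Arg1* UMIs or more. Without called doublets the glycolysis and hypoxia list had 13 and 17 higher genes on Day 3 and Day 7, and the MHC class II list 6 lower genes on each. *H2-Aa* then had -2.40 on Day 3 and -2.15 on Day 7, and *H2-Eb1* -2.45 and -2.30, lower than with doublets kept. The glycolysis and hypoxia list had 8 and 5 higher genes with 1 *Arg1* UMI or more, and 6 and 9 after thinning with regrouping. It had 9 and 9 with macrophage genes at 2% or more, and 0 lower genes under every alternative. The MHC class II list had a median of -0.005 on Day 3 with macrophage genes at 2% or more.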
